A study of Mus musculus with 12 samples.

Results

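Long noncoding RNA (lncRNA) genes expressed in mouse liver were followed over the first 12 h after partial hepatectomy. The members were the genes that the deposited table types as lincRNA, antisense, processed_transcript or sense_overlapping and that reached 1 FPKM (fragments scaled by gene length and library size) in 3 or more of the 12 libraries. This rule took 499 of the 9192 rows of those types and of 54532 rows in all. Members were thus chosen by their FPKM over all libraries and by no contrast, but a gene that passes through 1 group alone had to differ between groups. There were 20 such members, 15 through sham, 2 through 3 h, 0 through 6 h and 3 through 12 h. The livers came from wild-type C57/BL6J mice, and poly(A) RNA was sequenced in 3 libraries per group: sham operation, and 3, 6 or 12 h after 70% of the organ was removed. No hour is stated for sham. One library, 6 h replicate 3 by its title, carries 7 h in its time field. Since nothing states that each library is its own animal, p-values here measure only the spread between these samples, which may be technical. The comparison asks how expression moves in the hours that prepare the remaining lobes for growth.

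LncRNAs are transcripts that hold no long reading frame. Some act in the nucleus as scaffolds or regulators, some are the spliced hosts of small nucleolar RNAs (snoRNAs) or microRNAs carried in their introns or exons, and many are transcribed opposite or back to back with a coding gene. After hepatectomy the remaining hepatocytes leave quiescence, turn on immediate early and acute phase genes, and enlarge their ribosome production before they enter the cell cycle. In bulk tissue, fewer cells of a type and less RNA per cell cannot be told apart.

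Of the 499 members, 212 were typed as lincRNA, 212 as antisense, 73 as processed_transcript and 2 as sense_overlapping. They were short and sparse: their median length was 1102 bases against 4181.5 for the tested protein-coding genes, and their median mean count per library was 33.4 against 357. The median of their mean levels was 1.45 FPKM, against 4.02 over the 11451 genes tested. A mean of 10 FPKM was reached by 33 members and 1 FPKM in all 12 libraries by 134. At the threshold, the third highest library was at 1.0007 FPKM for Gm30931, 1.00071 for 1500015A07Rik and 1.00371 for Gm26880, just inside, and at 0.999686 for Gm11767, 0.999525 for Gm28198 and 0.996011 for Gm11837, just outside. In RefSeq 10 members carry a protein-coding type, among them Cct6a, a subunit of the chaperonin that folds actin and tubulin, and 5 carry a pseudogene or transcribed pseudogene type, so the label lncRNA does not hold for every member.

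The position of each member decides how its reads can be counted. The span of 262 members (52.5%) overlapped that of a protein-coding gene, on the opposite strand alone for 241. Exons overlapped coding exons for 182 members, 136 of them antisense. The strand used in counting is not given in the sources used here, so for these members the reads of the 2 strands cannot be told apart. A further 50 members lay head to head with a coding gene, on opposite strands with their starts within 5 kb, 49 lay within 5 kb in another arrangement, and 138 had no coding gene within 5 kb. On their own strand, 21 members held 1 or more snoRNA or scaRNA genes (scaRNAs are the related guide RNAs of Cajal bodies) and 10 held a microRNA gene.

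The microRNAs inside host RNAs are given first, since Mir22hg and Dleu2 were lower at 3 and 6 h while Mir17hg was not called. Sequences are from RefSeq on GRCm38.p6, with the seed (bases 2 to 8, which pairs with targets) in capitals. The Dleu2 pair share the seed AGCAGCA, and 2 microRNAs of Mir17hg share AAAGUGC. The 28 mature microRNAs of RefSeq that lie inside members fall in 9 of them. Poly(A) libraries measure the host transcript, not these products.
mmu-miR-22-3p, in Mir22hg, chr11:75463772-75463793, plus strand: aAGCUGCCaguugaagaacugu
mmu-miR-15a-5p, in Dleu2, chr14:61632075-61632096, minus strand: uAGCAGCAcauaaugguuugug
mmu-miR-16-5p, in Dleu2, chr14:61631936-61631957, minus strand: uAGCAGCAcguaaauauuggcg
mmu-miR-17-5p, in Mir17hg, chr14:115043684-115043706, plus strand: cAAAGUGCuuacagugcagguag
mmu-miR-20a-5p, in Mir17hg, chr14:115044183-115044205, plus strand: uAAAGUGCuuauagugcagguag

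Start sites of snoRNA hosts are shown because many such genes begin with a terminal oligopyrimidine tract, the element that ties translation of ribosomal protein mRNAs to growth signals. Each stretch runs from 25 bases before to 25 from the annotated start on the gene's strand (RefSeq, GRCm38.p6). Capitals mark a tract, searched on the gene's strand only as a C followed by 5 or more pyrimidines that begins within 15 bases of the start. The tract was present in 9 of 18 hosts with a promoter in RefSeq (50%), in 28.5% of the 214 members so matched and in 26.3% of 32851 promoters.
Snhg1, chr19:8723462-8723511, plus strand: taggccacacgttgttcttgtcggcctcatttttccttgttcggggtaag
Snhg5, chr9:88522873-88522922, minus strand: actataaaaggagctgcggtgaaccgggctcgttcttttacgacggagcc
Snhg17, chr2:158361498-158361547, minus strand: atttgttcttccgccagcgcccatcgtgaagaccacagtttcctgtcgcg
1110038B12Rik, chr17:34952447-34952496, minus strand: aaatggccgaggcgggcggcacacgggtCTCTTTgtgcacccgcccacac
AI506816, chr5:23712643-23712692, minus strand: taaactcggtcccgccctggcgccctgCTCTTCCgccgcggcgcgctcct
9430037G07Rik, chr9:88599219-88599268, minus strand: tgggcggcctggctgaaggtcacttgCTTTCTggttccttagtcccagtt
Snhg12, chr4:132308653-132308702, plus strand: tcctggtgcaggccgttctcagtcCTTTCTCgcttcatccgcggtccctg
Snhg8, chr3:123508312-123508361, minus strand: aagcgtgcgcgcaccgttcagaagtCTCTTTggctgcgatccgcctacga

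TGANTCA, the site read by AP-1 (the Fos and Jun dimer made within minutes of resection), was searched on both strands in the 250 bases before and 50 from each start. It was present in 4 of the 26 matched members higher at 6 h (15.4%), in 4 of 86 lower at 6 h (4.65%), in 6.54% of all matched members and in 7.81% of all promoters. One stretch of 37 bases from each of the 4 is shown with the site in capitals. These counts are small, and a match is a description of letters, not of binding.
Gm8883, chr1:71887995-71888031, plus strand: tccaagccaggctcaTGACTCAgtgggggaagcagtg
Gm28857, chr1:130741439-130741475, minus strand: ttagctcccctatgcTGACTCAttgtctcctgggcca
Egfros, chr11:16830735-16830771, minus strand: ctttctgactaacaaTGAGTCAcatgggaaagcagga
Gm41144, chr14:45543481-45543517, minus strand: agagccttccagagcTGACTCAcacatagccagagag

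Of the other motifs searched on both strands, CACGTG was present in 11.7% of matched members and 7.15% of all promoters, TGACGT in 15% and 7.51%, and TTCNNNGAA in 8.88% and 8.3%. Where head-to-head starts lie close together, the stretch between them adjoins both genes, and the 167 bases between the starts of Gm17586 and Mafg, a small Maf transcription factor gene, are given as an example with each CG in capitals. They are 73.1% G or C and hold 26 CG. The median promoter of the 34 matched head-to-head members was 66.5% G or C, against 54.5% for the 180 other matched members and 52.7% for all promoters.
Gm17586 to Mafg, chr11:120633601-120633767, plus strand: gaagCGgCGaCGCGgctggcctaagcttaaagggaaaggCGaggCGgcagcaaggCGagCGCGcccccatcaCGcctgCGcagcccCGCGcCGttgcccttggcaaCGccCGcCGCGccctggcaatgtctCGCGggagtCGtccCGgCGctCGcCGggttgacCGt

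Library totals lay between 15573405 and 17199639 counts. Members took up 0.519 ± 0.018% of the counts in sham livers, 0.454 ± 0.051% at 3 h, 0.343 ± 0.014% at 6 h and 0.464 ± 0.035% at 12 h (SD, n = 3). All 3 libraries at 6 h lay below all others. The exact two-sided permutation p against sham was 0.2 at 3 h, 0.1 at 6 h and 0.1 at 12 h, and 0.1 is the smallest that 3 against 3 can give. Sham replicate 1 stood apart, with mitochondrially encoded transcripts at 11.9% of counts against 6.26% and 5.52% in the other sham libraries, and its part in the results below was not tested beyond the fits without it. The summed level of 10 hepatocyte markers ranged from 40138 to 41855 FPKM in sham, 42761 to 52310 (3 h), 38989 to 45219 (6 h) and 25980 to 27868 (12 h), with 2, 2 and 0 of the 10 higher and 0, 0 and 5 lower than sham, and 7 lower at 12 h than at 6 h. The summed level of 10 neutrophil markers ranged from 1.69 to 2.23 FPKM in sham, and the ranges were 13.4 to 14.4 (3 h), 9.21 to 19.5 (6 h) and 6.56 to 8.01 (12 h), with 4 of the 10 tested and 4, 3 and 2 of them higher. Their part in the results was not tested.

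Differences are log2 values fitted by the edgeR quasi-likelihood test in 1 model of all 12 libraries, given with their standard error (SE), and a gene is called at a Benjamini-Hochberg adjusted p under 0.05 over the 11451 genes. Called members leaned to the lower side at 3 and 6 h. At 3 h, 46 members were higher and 109 lower (9.22% and 21.8%), while 9.81% and 11.7% of all genes tested were higher and lower (21.6% either way). At 6 h, 57 were higher and 157 lower (11.4% and 31.5%), against 16.8% and 18.2% of all genes (35% either way). At 12 h, 48 were higher and 94 lower (9.62% and 18.8%), against 13.5% and 15.3% (28.8% either way), and the 142 calls were 94 without 12 h replicate 3.

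Counting members whose 3 libraries at a time all lay on one side of all 3 sham libraries gave the same order of sides. At 3 h 66 lay above and 173 below (all genes 18.9% and 17.5%, 36.4% either way), at 6 h 76 and 191 (23.1% and 20.8%, 43.9% either way) and at 12 h 72 and 122 (19.7% and 18.9%, 38.6% either way). The median member differed from sham by -0.44 at 3 h, -0.50 at 6 h and -0.21 at 12 h, and the median of all genes tested by -0.02, -0.01 and -0.02. Among the 359 members whose mean over all libraries reached 1 FPKM, 22.3%, 33.1% and 20.1% were lower at the 3 times. Of members under 5 FPKM on average 21.2%, 30.5% and 17.7% were lower, and of protein-coding genes under 5 FPKM 14.9%, 18.9% and 11.7%. Members that overlapped no coding gene were lower in 26.6%, 35.4% and 23.2%. With scaling by library totals the median of all genes itself moved to -0.20 at 3 h and -0.32 at 6 h, and the members' calls to 40 higher and 146 lower at 3 h and 45 and 199 at 6 h.

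Across the 4 groups 263 members differed by the edgeR F-test (52.7%), against 50% of all genes tested. Calls against sham were made for 266 members at 1 or more times (53.3%), against 49.6% of all genes. At all 3 times 45 were lower (9.02%) and 23 higher (4.61%), against 3.98% and 4.16% of all genes. Of lincRNA members 24.5%, 33.0% and 23.1% were lower at 3, 6 and 12 h, of antisense members 17.9%, 30.7% and 15.1%, and of processed transcripts 26.0%, 30.1% and 16.4%. No difference between types was tested.

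**Figure D1:**
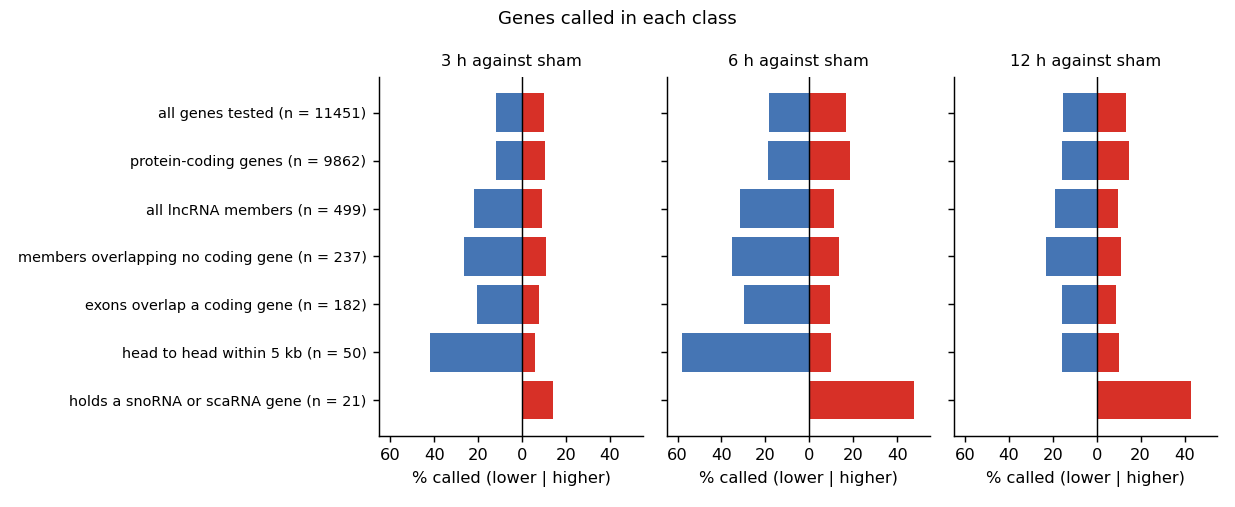
Percent of genes called lower (bars to the left) and higher (bars to the right) against sham at 3, 6 and 12 h, for all genes tested, protein-coding genes and classes of lncRNA genes, with the number of genes in each. Head-to-head members reach 58.0% lower at 6 h, and the 21 members that hold a snoRNA or scaRNA gene have none lower.

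The largest rises belonged to a small set of RNAs that were near 0 in sham liver. Here and below, a member with all sham libraries under 1 FPKM passed the level rule through resected libraries alone. For such a member a rise from sham at some time was set by the rule of choice. Gm43305 (ENSMUSG00000105703, chromosome 14, 54292443 to 54297456, minus strand) has no coding gene within 5 kb. It measured 0.164, 3.00 and 0.778 FPKM in sham, 255, 59.1 and 244 at 3 h, 21.9, 34.0 and 58.2 at 6 h and 1.19, 3.77 and 3.63 at 12 h. The 3 h libraries were the highest and the 12 h libraries overlapped the sham range. It rose by 7.09 ± 0.95 (SE) at 3 h and 4.82 ± 0.86 at 6 h (adjusted p = 0.000177 and 0.00072), stood at 1.10 ± 0.77 at 12 h (adjusted p = 0.311), and fell by 3.72 from 6 h to 12 h (adjusted p = 0.00489).

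Gm48199 (ENSMUSG00000113399, chromosome 13, 52180411 to 52181637, plus strand) rose less at 3 h than Gm43305 and was still called at 12 h. It measured 0, 0.542 and 2.62 FPKM in sham, 25.4, 57.6 and 54.9 at 3 h, 81.0, 57.8 and 97.4 at 6 h and 9.6, 8.06 and 13 at 12 h. No sham library reached any library of the resected livers. The differences were 5.33 ± 0.60, 6.12 ± 0.61 and 3.20 ± 0.62 (adjusted p = 4.73e-05, 7.29e-06 and 0.00202). 3930402G23Rik on chromosome 8 went from 0.195, 0.113 and 0.0939 FPKM to 3.53, 7.95 and 2.14 at 3 h, 15.1, 7.50 and 6.94 at 6 h and 2.56, 1.83 and 3.05 at 12 h. Each resected library stood above each sham library, with differences of 5.04 ± 0.58, 6.16 ± 0.58 and 4.19 ± 0.58 (largest adjusted p = 0.000219).

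Gm8883 (chromosome 1, 71888112 to 71891204, plus strand), with its pair of TGANTCA sites before the start, was the abundant riser with a clear level in sham. It measured 11.3, 10.6 and 10.7 FPKM in sham, 31.5, 42.1 and 29.6 at 3 h, 35.5, 45.7 and 44.1 at 6 h and 25, 19.2 and 25 at 12 h. The sham libraries were nearly equal, and the 12 h libraries lay between them and the earlier times. It rose by 1.62 ± 0.17, 1.91 ± 0.17 and 1.07 ± 0.17 (adjusted p = 2.73e-05, 3.62e-06 and 0.000543). Gm41144 had 2 counts over the sham libraries and 35, 58 and 55 at 3, 6 and 12 h. The ratios to sham were 21 (95% interval 5.39 to 179.9), 36.8 (9.73 to 311) and 27.6 (7.29 to 234), intervals that cover counting error only.

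Other large risers also rested on few sham counts. 1200007C13Rik had 3 counts in sham, 366 at 3 h, 432 at 6 h and 29 at 12 h, a ratio of 146 (49.6 to 712) at 3 h and 183 (62.1 to 889) at 6 h, and its call at 12 h (adjusted p = 0.0228) was lost without sham replicate 1 or 2 or 12 h replicate 1, where adjusted p reached 0.101. Gm34047 had no count in sham. Taking 3 counts over the group as the floor, it was 16.8-fold higher at 3 h, 22.4-fold at 6 h and 10-fold at 12 h. The intervals ran from 13.1, 17.6 and 7.67. Gm26880, also at 0 in sham, was 16.8-fold higher at 3 h and 43.5-fold at 6 h by the same floor (intervals from 13.1 and 34.8). It had 1 count at 12 h. It lies inside the span of Zfp981, in a region of near-identical zinc finger genes, so its counts are uncertain. Mirt2, an RNA known from the injured heart, stood at 0, 0.169 and 0.262 FPKM in sham and rose by 2.99 ± 0.59 at 6 h and 2.87 ± 0.58 at 12 h (adjusted p = 0.00143 and 0.00274).

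**Figure D2:**
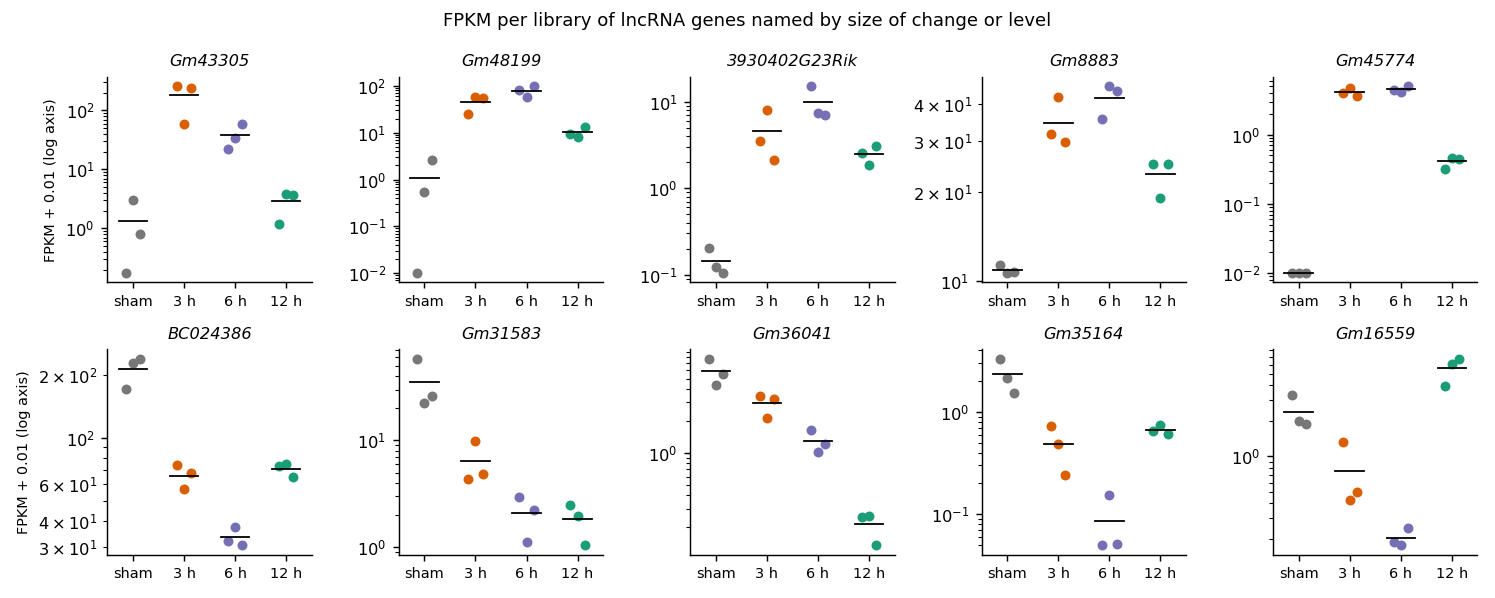
FPKM plus 0.01 on a log axis in each of the 12 libraries for 10 lncRNA genes, with the group mean as a bar. Gm43305 peaks at 3 h and is back near sham at 12 h, Gm31583 and Gm36041 lie below sham in every resected library, and Gm16559 is lowest at 6 h and highest at 12 h.

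The most abundant member that fell was BC024386 (ENSMUSG00000109628, chromosome 7, 140906014 to 140907983, plus strand), with no coding gene within 5 kb. It measured 171, 228 and 238 FPKM in sham, 73.9, 56.7 and 67.6 at 3 h, 32.3, 37.6 and 30.6 at 6 h and 73.7, 75.0 and 65.2 at 12 h. Sham libraries were above all others and 6 h libraries below all others, while 3 h and 12 h overlapped. It fell by 1.73 at 3 h, 2.69 at 6 h and 1.59 at 12 h (SE 0.16, 0.17 and 0.16, largest adjusted p = 2.4e-05) and rose by 1.11 ± 0.16 from 6 h to 12 h (adjusted p = 0.000356).

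Gm31583 on chromosome 16 went down without a return by 12 h. It measured 58.3, 22.4 and 25.8 FPKM in sham, 4.32, 9.86 and 4.86 at 3 h, 2.92, 1.10 and 2.20 at 6 h and 2.50, 1.92 and 1.02 at 12 h. Each group below sham was separate from it, and 6 h and 12 h overlapped. It fell by 2.52, 4.13 and 4.29 (SE 0.45, 0.50 and 0.50, adjusted p = 0.00151, 3.39e-05 and 5.64e-05). AW112010, an interferon-inducible RNA of immune cells, measured 62.7 to 71.4 FPKM in sham, 36.9 to 44.2 at 6 h and 41.5 to 46.5 at 12 h and fell by 0.77 ± 0.13 and 0.62 ± 0.13 (adjusted p = 0.000455 and 0.00302). Its fall at 3 h of 0.39 ± 0.13 had an adjusted p of 0.0437, which lay above 0.05 without any 1 of 11 of the libraries (up to 0.162). Beside it, the summed level of 10 lymphocyte markers ranged from 5.83 to 8.31 FPKM in sham, 4.28 to 10.3 (3 h, overlapping sham), 2.46 to 3.02 (6 h) and 1.23 to 2.75 (12 h), and the 1 of them that was tested was lower at 6 and 12 h. That of 10 Kupffer cell markers ranged from 101 to 150.0 FPKM in sham, 150.0 to 175 (3 h), 99.5 to 125 (6 h) and 73.0 to 93.6 (12 h). Their part in the result was not tested.

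A few members reached their lowest level at 12 h. Gm36041 on chromosome 10 measured 7.68, 4.36 and 5.54 FPKM in sham, 3.43, 2.14 and 3.19 at 3 h, 1.63, 1.01 and 1.21 at 6 h and 0.241, 0.244 and 0.125 at 12 h. Each group lay below the one before it with no overlap, and it fell by 2.21 ± 0.29 at 6 h and 4.83 ± 0.36 at 12 h (adjusted p = 7.58e-05 and 1.74e-06). The call at 3 h, a fall of 1.04 ± 0.28 (adjusted p = 0.016), was lost without 3 h replicate 2 (0.0722). Its span shares 29921 bases with that of Gm48877 on the other strand, which had 85 counts in sham and 1 at 12 h, 84.7-fold lower (14.8 to 3383).

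Gm48877 also spans Avpr1a, the liver vasopressin receptor gene, with no shared stretch between their transcripts. Avpr1a fell by 1.09 ± 0.18 at 12 h (adjusted p = 0.00074) and differed by 0.30 at 3 h and -0.21 at 6 h (adjusted p = 0.257 and 0.405). Gm34654 on chromosome 9 measured 17.3, 10.1 and 7.39 FPKM in sham and 0.708, 0.409 and 0 at 12 h, a fall of 4.90 ± 0.66 (adjusted p = 0.00017), after a fall of 2.38 ± 0.54 at 6 h (0.00359). Its call at 3 h (adjusted p = 0.04) was lost without any 1 of 6 libraries, up to 0.142 without 3 h replicate 3. Gm47789, 99153 bases away on the same strand, was at 0 at 12 h. By the floor of 3 counts it was 11.6-fold lower than sham (interval from 8.96). Gm45301 had 106 counts in sham and 2 at 12 h, 52.8-fold lower (14.3 to 442).

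Several members were lowest at 6 h, at or near 0 counts. Gm35164 on chromosome 14 measured 3.30, 2.14 and 1.52 FPKM in sham, 0.726, 0.480 and 0.234 at 3 h, 0.0394, 0.146 and 0.0413 at 6 h and 0.637, 0.737 and 0.596 at 12 h. The 6 h libraries were the lowest without overlap, 29.3-fold below sham by counts (13.3 to 80.7). Gm35164 reached 1 FPKM in sham alone, so a fall from sham was set by the rule of choice. Gm16116, inside the span of Wwox with no shared stretch, had no count at 6 h and 28 at 12 h. By the floor of 3 counts it was 16-fold lower at 6 h than in sham (95% interval from 12.6). It was 7.39-fold higher at 12 h than at 6 h (from 5.62). Gm34333 had no count at 6 h either, 20.5-fold lower than sham by the same floor (from 16.3). It had 6 counts at 12 h against 78 in sham, 12.9-fold lower (5.69 to 36.4). This gene too reached 1 FPKM in sham alone, so its falls from sham were set by the rule of choice. A530020G20Rik, antisense to Slc44a3, fell 27.9-fold at 6 h (14.5 to 61.7), and Gm11266, antisense to the liver transcription factor gene Nfib, 25.4-fold (9.69 to 94.7). The calls of these last 2 at 12 h (adjusted p = 0.0265 and 0.0231) were lost without sham replicate 1 or 12 h replicate 3, and that of A530020G20Rik also without 12 h replicate 1 (up to 0.110 and 0.0792), and that of Gm11266 at 3 h (0.0182) without sham replicate 1 or 3 h replicates 1 or 2 (up to 0.0760).

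The largest falls at 3 h were of low RNAs. Gm11337 had 64 counts in sham and 1 at 3 h, 53.4-fold lower (9.25 to 2142), while the adjoining Slc17a2 differed by 0.00 ± 0.13 (adjusted p = 1). Its call at 12 h (adjusted p = 0.0417) was lost without any 1 of 9 libraries, up to 0.142. Gm28876 fell 16.1-fold at 3 h (5.25 to 80.5) and Gm37336 13.5-fold (5.56 to 42.8). The latter reached 1 FPKM in sham alone, so a fall from sham was set by the rule of choice. Gm20703 had 47 counts in sham, 4 at 3 h, 3 at 6 h and 39 at 12 h, so that its fall of 9.81-fold at 3 h (3.59 to 37.5) was followed by a rise of 10.3-fold from 6 h to 12 h (3.27 to 52.1). Gm16551, which adjoins the hepatocyte factor gene Onecut1, fell by 2.05 ± 0.40 at 6 h (adjusted p = 0.00147) and Onecut1 differed by -0.29 ± 0.64 (0.76).

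Of the classes plotted, head-to-head members had the highest share of falls at 3 and 6 h. Of the 50 head-to-head members, 21 were lower and 3 higher at 3 h, 29 lower and 5 higher at 6 h (58.0% and 10%), and 8 lower and 5 higher at 12 h. Their medians were -0.97, -1.0 and -0.42, beside the medians of all genes given above. From 6 h to 12 h 11 were higher and 1 lower (22.0% and 2.0%), against 12.1% and 12.6% of all genes, with a median of 0.65. Of the 29 lower at 6 h, 8 were lower than sham at 12 h. The members of the class named here were chosen after their values were seen.

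4930556M19Rik starts 212 bases from Rai14, which encodes an actin-binding protein. It measured 1.33, 0.874 and 0.934 FPKM in sham, 0.598, 0.460 and 0.417 at 3 h, 0.481, 0.527 and 0.472 at 6 h and 1.53, 1.23 and 1.37 at 12 h. All early libraries lay below sham, and the 12 h libraries overlapped sham. It fell by 1.12 ± 0.23 and 1.10 ± 0.23 at 3 and 6 h and rose by 1.5 ± 0.23 from 6 h to 12 h (adjusted p = 0.00329, 0.00202 and 0.000446), while Rai14 differed by 0.20, 0.14 and 0.21 from sham (adjusted p = 0.349, 0.475 and 0.278). 4632404H12Rik, 376 bases from the ubiquitin-conjugating enzyme gene Ube2q1, fell by 1.15 ± 0.28 and 1.35 ± 0.28 (0.00917 and 0.00213) and A430046D13Rik, beside the myosin light chain gene Myl6b, by 1.69 ± 0.34 at 6 h (0.00176). The latter 2 rose from 6 h to 12 h by 1.41 ± 0.28 and 2.28 ± 0.34 (0.00285 and 0.00037).

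Gm17586 fell together with its neighbour across the stretch printed above. It measured 4.93, 3.55 and 3.67 FPKM in sham, 2.17, 2.47 and 1.69 at 3 h, 0.774, 0.643 and 1.22 at 6 h and 2.74, 2.71 and 2.28 at 12 h, and Mafg 12.0, 15.2 and 15.3, then 10.2, 9.40 and 11.3, then 6.93, 6.56 and 6.21, then 10.4, 12.2 and 10.5. Both were lowest in all 3 libraries at 6 h. The falls at 6 h were 2.23 ± 0.33 for Gm17586 and 1.14 ± 0.14 for Mafg (adjusted p = 0.000165 and 3.63e-05). The call of Gm17586 at 3 h (adjusted p = 0.0316) was lost without sham replicate 1 or any 1 of the 3 h libraries (up to 0.121).

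Among the few head-to-head members that rose, Gm16348 adjoins Fgl1, which encodes a liver-secreted fibrinogen-like protein of the acute phase. It measured 0.691, 0.564 and 0.981 FPKM in sham, 3.67, 5.63 and 3.77 at 3 h, 4.01, 5.44 and 5.62 at 6 h and 4.31, 2.02 and 2.14 at 12 h, every resected library above sham. It rose by 2.50 ± 0.34, 2.72 ± 0.34 and 1.90 ± 0.34 (largest adjusted p = 0.00122), and Fgl1 by 1.70, 2.72 and 2.91 (largest 8.32e-06). BC049987 and the trehalase gene Treh rose at 6 h by 1.31 ± 0.27 and 1.52 ± 0.30 (0.00204 and 0.00157), and Gm43672 and Tbl1xr1, a subunit gene of a nuclear corepressor, by 1.76 ± 0.33 and 1.64 ± 0.23 (0.00103 and 0.00011).

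**Figure D3:**
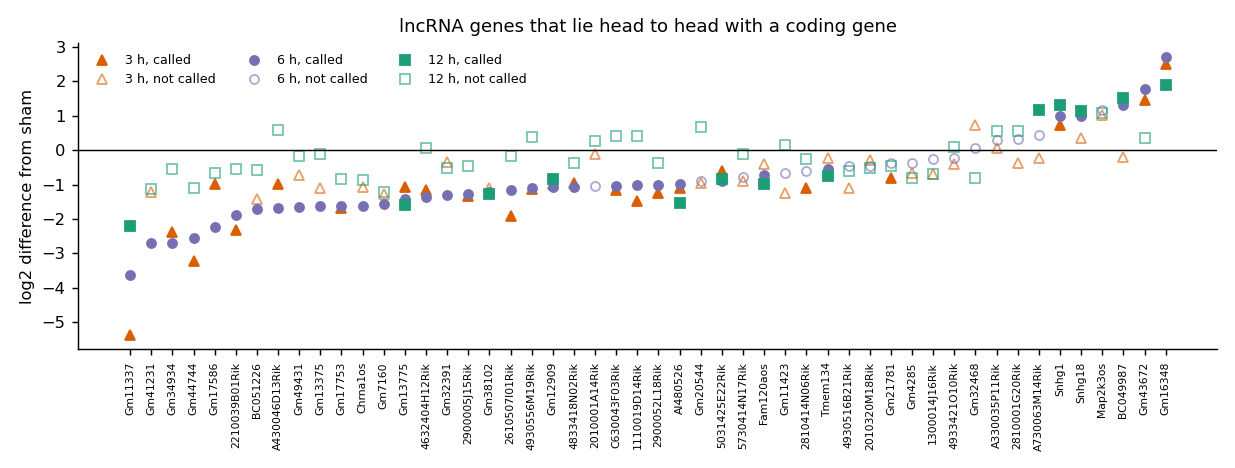
Log2 difference from sham at 3, 6 and 12 h for each of the 50 head-to-head members, ordered by the value at 6 h, with filled symbols where the gene was called. Most 3 h and 6 h symbols lie below 0, and 8 of the 12 h symbols below 0 are filled.

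Among snoRNA hosts the calls were all on the higher side. Exons of noncoding hosts are mostly byproducts of splicing, while the intronic snoRNAs guide modification of ribosomal RNA. Cct6a, counted among the hosts, carries a protein-coding type in RefSeq. Of the 21 members that hold a snoRNA or scaRNA gene, 3 were higher at 3 h, 10 at 6 h and 9 at 12 h (14.3%, 47.6% and 42.9%), against 9.81%, 16.8% and 13.5% of all genes. None was lower, against 11.7%, 18.2% and 15.3% of all genes, and the medians were 0.44, 0.74 and 0.58. At each time 11 or more of the 21 were not called. Of the 14 tested genes on the list of 22 host names, 3, 7 and 6 were higher and none lower.

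Snhg1 (chromosome 19, 8723475 to 8726443, plus strand) holds 8 snoRNA genes and starts 106 bases from Slc3a2, an amino acid transporter gene. It measured 2.22, 2.41 and 1.86 FPKM in sham, 3.61, 3.73 and 3.68 at 3 h, 5.20, 3.56 and 4.44 at 6 h and 4.68, 5.74 and 5.66 at 12 h, and every resected library lay above sham. It rose by 0.73 ± 0.18, 1.0 ± 0.18 and 1.30 ± 0.18 (adjusted p = 0.0104, 0.000712 and 0.000188), while Slc3a2 differed by 0.50, 0.22 and 0.04 (0.0568, 0.363 and 0.886). Snhg5, with 2 snoRNA genes, went from 2.86, 1.52 and 2.13 FPKM to 3.85, 5.79 and 4.91 at 3 h, 6.33, 6.75 and 7.11 at 6 h and 3.35, 5.73 and 5.15 at 12 h. The groups did not overlap with sham, and it rose by 1.12, 1.61 and 1.12 (SE 0.26 each, adjusted p = 0.00823, 0.000386 and 0.00657).

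Snhg17 rose by 0.86 ± 0.17 at 6 h (adjusted p = 0.00169), and its calls at 3 h (0.0374) and 12 h (0.0134) were lost without any 1 of 6 and 3 libraries, up to 0.123 and 0.0605, both without sham replicate 3. Gas5, which holds 10 snoRNA genes and is known to build up in growth-arrested cells, measured 6.20, 9.77 and 9.06 FPKM in sham, 10.8, 10.5 and 13.1 at 3 h, 13.4, 11.6 and 14.2 at 6 h and 11, 13.9 and 12.8 at 12 h. Its groups did not overlap with sham. It rose by 0.62 ± 0.17 at 6 h and 0.58 ± 0.17 at 12 h (adjusted p = 0.0139 and 0.0238), with the first lost without 6 h replicate 3 (0.0518) and the second without 12 h replicate 2 or 3 (0.0874 and 0.0690). 9430037G07Rik measured 0.200 to 0.687 FPKM in sham and 2.09 to 2.93 at 6 h, a rise of 2.51 ± 0.41 (0.00039), and fell by 1.64 ± 0.39 to 12 h (0.00826).

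AI506816 rose by 0.82 at 6 h and 1.35 ± 0.24 at 12 h (adjusted p = 0.0173 and 0.00116), the first lost without sham replicate 3 or 6 h replicate 3 (0.0557 and 0.0590). 1110038B12Rik rose by 0.93 ± 0.20 at 6 h and 0.76 at 12 h (0.00281 and 0.0126), the second lost without 12 h replicate 3 (0.0661). Cct6a rose by 0.88 ± 0.17 at 12 h (0.00177), with its overlapping gene Psph at 0.22 ± 0.32 (0.643). Snhg15, Snhg18 and Snhg6 were called at 6 h (adjusted p = 0.0385, 0.0355 and 0.0281), and each call was lost without any 1 of 3 to 6 libraries, up to 0.123, 0.112 and 0.104. With scaling by library totals, the 6 h calls of Gas5, Snhg6, Snhg15, Snhg18 and AI506816 were lost and none changed sign. Snhg8, Snhg12, Snhg20, Zfas1, Dancr, Epb41l4aos and 2410006H16Rik were not called at any time, with differences at 6 h between -0.40 and 0.90.

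Hosts with and without the tract described above were both among those called. The search depends on the start used. For Gas5, Cct6a, Snhg17 and Snhg5, all without a match, the RefSeq start lay 179, 358, 58 and 32 bases from that of the deposited annotation. A tract at another start would be missed. Of the 9 with a tract, 0, 4 and 3 were higher at 3, 6 and 12 h, and of the 9 without, 3, 5 and 6. Snhg1, Snhg5 and Snhg17, each without it, rose, and Snhg8 and Snhg12, each with it, differed by 0.37 ± 0.37 and 0.74 ± 0.28 at 6 h (adjusted p = 0.476 and 0.0554). The difference between these groups was not tested. The protein partners of snoRNAs were higher in 7 of 19 at 3 h, with 2 lower, and in 10 and 6 at 6 and 12 h with none lower. Of all genes tested, 9.81%, 16.8% and 13.5% were higher and 11.7%, 18.2% and 15.3% lower at the 3 times. Nop58, a core protein of box C/D particles, rose by 1.44 ± 0.20, 2.02 ± 0.20 and 1.47 ± 0.20, and Nolc1, a nucleolar chaperone of the particles, by 1.26 ± 0.17, 1.33 ± 0.17 and 0.90 ± 0.17 (largest adjusted p = 0.00153).

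**Figure D4:**
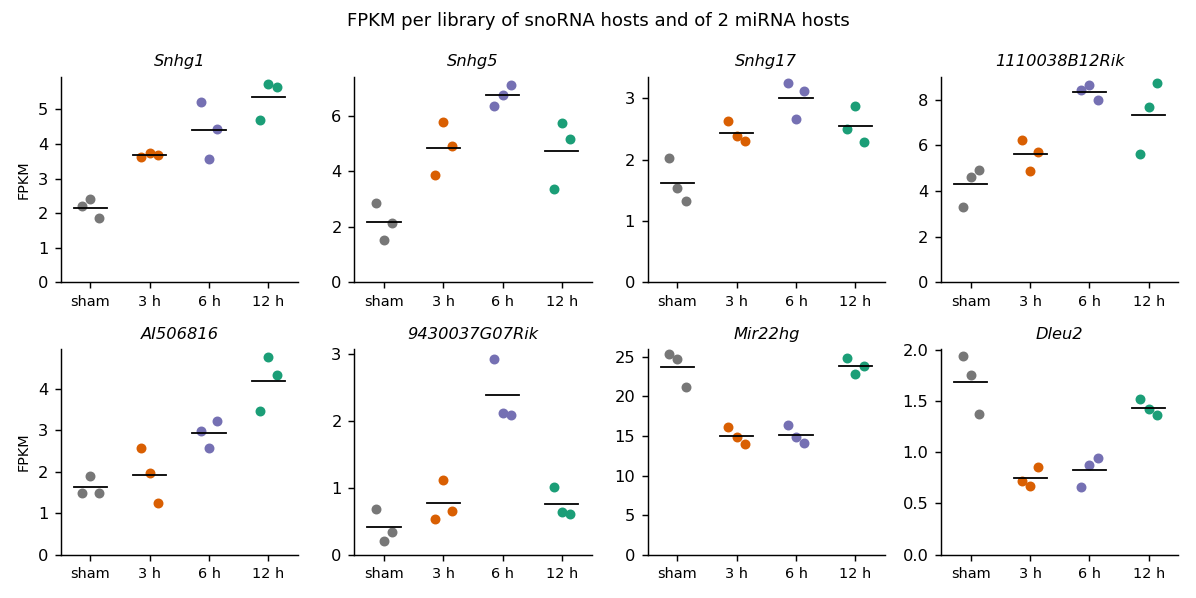
FPKM in each library (points) and group means (bars) on linear axes from 0 for 6 snoRNA hosts and 2 microRNA hosts. Snhg1 and Snhg5 lie above sham in all resected libraries, and Mir22hg and Dleu2 lie below sham at 3 and 6 h and are back at sham levels at 12 h.

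Among microRNA hosts, Mir22hg and Dleu2 fell early and returned. Mir22hg (chromosome 11, 75461539 to 75466676, plus strand) measured 25.3, 24.7 and 21.2 FPKM in sham, 16.1, 14.8 and 13.9 at 3 h, 16.4, 14.8 and 14 at 6 h and 24.8, 22.9 and 23.8 at 12 h. The 3 h and 6 h libraries lay below all others, and 12 h lay within sham. It fell by 0.71 ± 0.13 and 0.68 ± 0.13 (adjusted p = 0.00141 and 0.000946), did not differ by call at 12 h (0.00 ± 0.12 in size, adjusted p = 0.988) and rose by 0.68 ± 0.13 from 6 h to 12 h (0.00175). It overlaps exons of Tlcd2 on the same strand, and Tlcd2 went on falling to 12 h, by 1.84 ± 0.21 (5.05e-05).

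Dleu2 (chromosome 14, 61602839 to 61682373, minus strand), the source of the microRNAs with the seed AGCAGCA that restrain cyclins, measured 1.94, 1.75 and 1.38 FPKM in sham, 0.724, 0.668 and 0.860 at 3 h, 0.663, 0.870 and 0.942 at 6 h and 1.51, 1.42 and 1.36 at 12 h. Early libraries lay below all others, and 12 h overlapped sham. It fell by 1.21 ± 0.18 and 1.06 ± 0.18 (adjusted p = 0.000411 and 0.00051) and rose by 0.81 ± 0.18 from 6 h to 12 h (0.00548). Its neighbour Trim13, transcribed from the other strand, differed by -0.49 and -0.23 at 3 and 6 h (0.179 and 0.496). Over all genes tested, 11.7%, 18.2% and 15.3% were lower at 3, 6 and 12 h and 9.81%, 16.8% and 13.5% higher. Of the 10 members that hold a microRNA gene, 2, 3 and 1 were lower at these times and none higher. The third, Gm12718, named after its values were seen, fell by 2.68 ± 0.60 at 6 h and 3.47 ± 0.63 at 12 h (0.00357 and 0.00136).

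Mir17hg, host of a cluster known to promote growth, measured 1.22 to 1.71 FPKM in sham, 0.814 to 1.10 at 6 h and 1.07 to 1.73 at 12 h and was not called (adjusted p = 0.143 at 6 h and 0.921 at 12 h). Mir142hg, from blood cells, had 10 to 13 counts per group and was not called. On the list of 18 microRNA host names, 5 were tested and 1, 1 and 1 were higher (Mirt2 each time) and 2, 2 and 0 lower. Mirt2 is on that list by its name and holds no annotated microRNA gene. The call of Mirt2 at 3 h (adjusted p = 0.0167) was lost without 3 h replicate 3 (0.0523). Of 12 tested factors that process microRNAs, 1, 3 and 2 were higher and 5, 4 and 1 lower. All genes tested were higher in 9.81%, 16.8% and 13.5% and lower in 11.7%, 18.2% and 15.3%. Ago1, a small RNA binding protein gene, fell by 0.98 ± 0.13 at 3 h and 1.14 ± 0.13 at 6 h, while Xpo5, which exports precursors from the nucleus, rose by 0.84 ± 0.15 at 6 h (adjusted p = 0.00014, 1.88e-05 and 0.000651).

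Of the nuclear lncRNAs tested, Malat1, Neat1 and Tug1 were not called at any time. Malat1, which marks splicing speckles, measured 114, 113 and 79.7 FPKM in sham, 88.2, 108 and 61.8 at 3 h, 84.8, 83.3 and 93.3 at 6 h and 112, 128 and 106 at 12 h. All groups overlapped sham, and its differences of -0.29, -0.26 and 0.16 (SE 0.20 each) were not called (adjusted p = 0.346, 0.347 and 0.577). Neat1, the scaffold of paraspeckles, differed by 0.65 ± 0.25 at 12 h (0.0655) and Tug1 by 0.06 ± 0.22 (0.87). 2900097C17Rik, which is on the p53 and growth arrest list and not on the nuclear one, differed by -0.34 ± 0.18 at 12 h (0.171). Firre, which organises X chromosome domains, fell by 0.50 ± 0.14 at 3 h and 0.44 ± 0.14 at 6 h (0.0173 and 0.0221), calls that were lost without sham replicate 2 or 1 or more libraries of the time itself (up to 0.0850 and 0.0891).

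The lists that follow are short and stand beside all genes tested. Of these genes 9.81%, 16.8% and 13.5% were higher and 11.7%, 18.2% and 15.3% lower at 3, 6 and 12 h. By list, 4 nuclear body RNAs were tested and 0, 0 and 0 were higher and 1, 1 and 0 lower. The imprinted and X inactivation list had 3 tested, with 1, 1 and 0 lower and none higher. The p53 and growth arrest list had 5, with 0, 1 and 1 higher and 2, 2 and 0 lower, all of them genes named above. Of 4 tested RNAs named for roles in liver metabolism, Gm16551 alone was called, at 6 h. Gm15441, antisense to Txnip, measured 0, 4.28 and 0.249 FPKM at 3 h, so 1 library held nearly all of its counts (adjusted p = 0.111). Paraspeckle proteins were higher in 1, 3 and 3 of 12 and lower in 1, 2 and 1, with Pspc1 up by 1.96 ± 0.17 at 6 h (adjusted p = 3e-06), and nonsense-mediated decay factors were higher in 2, 1 and 1 of 10 and lower in 1 each time.

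Among the 10 members with the highest mean level, Gm30262 (21.1 to 41.6 FPKM over all libraries) was not called at any time. Gm26917 ranged from 9.90 to 82.3 FPKM with as much spread within groups as between them (adjusted p = 0.287 or more against sham). Gm10076, which RefSeq types as a pseudogene, so that reads of its parent gene may be counted with it, fell by 2.16 ± 0.48 at 6 h (0.00319). Its call at 12 h (0.0348) was lost without sham replicate 3 or any 1 of the 12 h libraries, up to 0.123.

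The differences of members and their coding neighbours ran together, most closely where exons overlap on opposite strands. Over 160 pairs with overlapping exons and both genes tested, the correlation across pairs of the log2 differences from sham was 0.78 at 3 h, 0.77 at 6 h and 0.57 at 12 h, and 0.65, 0.68 and 0.48 without the pair of Gm45774 and Mt2. Over 74 opposite-strand pairs without exon overlap it was 0.50, 0.60 and 0.28, and over 40 head-to-head pairs 0.38, 0.49 and 0.34. Over 37 pairs that lie within 5 kb in another arrangement it was 0.43, 0.50 and 0.37. Pairs are not independent samples, and they share libraries. Unstranded counting could put reads of one gene on the other, so these values carry no test. At 6 h both genes were called in 38 of the 160 pairs, 36 in the same direction. Both were called in 17 of the 74, 15 in the same direction, in 11 of the 40, 10 in the same direction, and in 7 of the 37, 6 in the same direction.

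**Figure D5:**
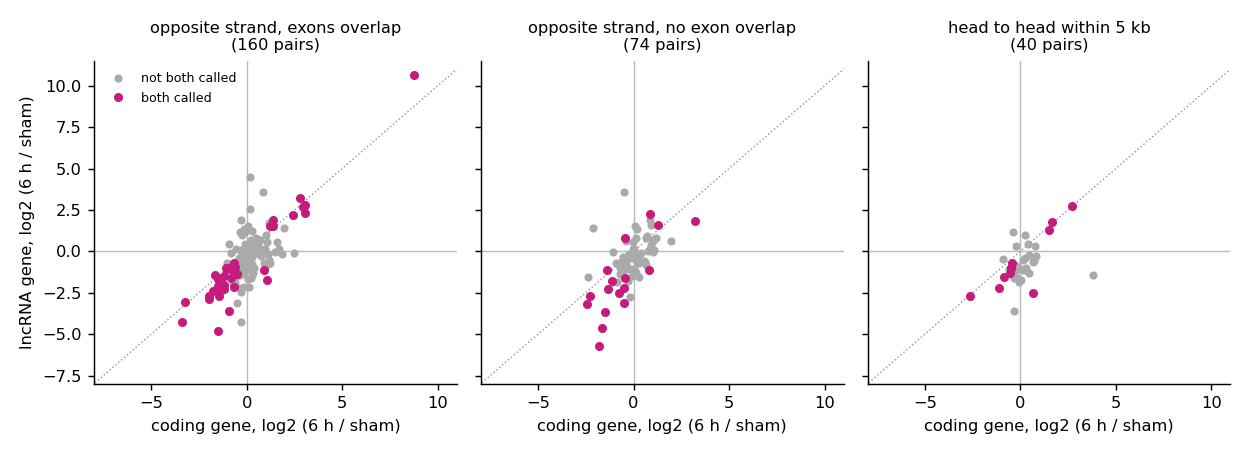
Log2 difference at 6 h against sham of each lncRNA gene (vertical) and of its coding neighbour (horizontal) for 160, 74 and 40 pairs, with pairs in which both were called in colour and equal differences on the dotted line. Coloured points lie mostly in the lower left and upper right quadrants, and the point farthest to the upper right is Gm45774 with Mt2.

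Gm45774 (chromosome 8, 94170748 to 94173412, minus strand) lies across Mt2, the gene of a zinc-binding metallothionein and a classic acute phase target. The longest unbroken run that their transcripts share is 212 bases. Gm45774 had no count in sham. It measured 4.03, 4.65 and 3.66 FPKM at 3 h and 4.43, 4.09 and 4.95 at 6 h. At 12 h it measured 0.305, 0.452 and 0.441. By the floor of 3 counts it was 200.5-fold, 218-fold and 19.4-fold above sham (intervals from 162, 176 and 15.3). Mt2 measured 0, 0 and 0.265, then 63.3, 65.3 and 46.7, then 52.1, 57.3 and 28.8, then 2.58, 3.07 and 1.90 FPKM. Every library of the resected livers was above every sham library for both genes. Whether Gm45774 holds reads of its own cannot be told apart from reads of Mt2.

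Notumos shares a run of 612 bases with Notum, which encodes an enzyme that switches off Wnt ligands. It measured 0.797, 2.3 and 1.76 FPKM in sham, 0.209, 0.124 and 0.0524 at 3 h, 0.238, 0.244 and 0.194 at 6 h and 1.2, 1.19 and 0.548 at 12 h. Early libraries lay below all others and 12 h overlapped sham. It fell by 3.65 ± 0.54 and 2.86 ± 0.50 at 3 and 6 h (adjusted p = 0.000386 and 0.000675), and Notum by 1.13 ± 0.31 and 1.96 ± 0.32 (0.0193 and 0.000412). Gm11695 and Slc16a5, a monocarboxylate transporter gene, rose at all times, Gm11695 by 2.78 ± 0.49, 3.20 ± 0.48 and 3.59 ± 0.47 from 9 counts in sham (largest adjusted p = 0.00141) and Slc16a5 by 2.3, 2.77 and 3.17 (largest 0.00177).

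Other pairs did not run together. Gm17281, which shares 42 bases with Pacsin3, rose 23.9-fold at 6 h (10.6 to 66.5) and 38.3-fold at 12 h (17.3 to 105.5) from 6 counts in sham, and Pacsin3 differed by 0.19 ± 0.26 and -0.05 ± 0.26 (adjusted p = 0.618 and 0.901). Hnf4aos, which lies across the hepatocyte master regulator gene Hnf4a without exon overlap, measured 8.51, 4.85 and 5.07 FPKM in sham and 3.02, 3.06 and 2.55 at 6 h, below all sham libraries. It fell by 1.12 at 6 h (adjusted p = 0.0111) while Hnf4a rose by 0.83 (0.000764). At 6 h opposite calls were made as well for Gm26588 with Mgll, 1810021B22Rik with Trabd, Gm19950 with Acsm1, B630019A10Rik with St6gal1 and Gm44744 with Psmc4. These pairs were named after their values were seen.

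Gm16559 and the alcohol dehydrogenase gene Adh1 parted by 12 h. Gm16559 (chromosome 3, 138281408 to 138307022, minus strand) measured 3.31, 1.99 and 1.86 FPKM in sham, 1.30, 0.421 and 0.490 at 3 h, 0.180, 0.166 and 0.235 at 6 h and 3.94, 6.06 and 6.70 at 12 h. Libraries at 6 h were below and those at 12 h above all others. It fell by 3.62 ± 0.50 at 6 h (adjusted p = 0.000102) and rose by 4.83 ± 0.49 from 6 h to 12 h (2.6e-05), while Adh1 fell by 0.94 ± 0.17 at 6 h and differed by 0.05 ± 0.17 from 6 h to 12 h (0.00072 and 0.862). The rise above sham at 12 h (1.21 ± 0.36, adjusted p = 0.024) was lost without sham replicate 2 or 3 or 12 h replicate 2 or 3 (up to 0.0946).

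Between 3 h and 6 h there were 6 higher and 20 lower (1.2% and 4.01%), against 4.45% and 4.18% of all genes (8.63% either way). The count of 26 was unstable: it was 50 without sham replicate 1, which is outside the comparison, between 11 and 16 when any 1 of the 3 h libraries was left out, 9 when 6 h replicate 2 was, and 14 when 6 h replicate 3 was. The largest falls were of Gm16116, Gm36435 and Gm35164, and the largest rises of Gm13421, Gm32540 and 9430037G07Rik, with adjusted p between 0.0129 and 0.0297. Each of these 6 calls was lost without any 1 of 2 to 5 libraries (adjusted p up to 0.121). BC024386 fell by 0.97 ± 0.16 over this interval (adjusted p = 0.00342).

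From 6 h to 12 h more members were called higher than lower. There were 78 members higher and 40 lower (15.6% and 8.02%), against 12.1% and 12.6% of all genes (24.7% either way), so 66.1% of the called members were higher, and 82.5% when scaled by library totals, where the median over all genes was 0.26. The split differed by position: of the 138 members with no coding gene within 5 kb 16 were higher and 21 lower, of the 262 that overlap one 44 and 16, and of the 50 head to head 11 and 1, and these differences were not tested. Of lincRNA members 28 were higher and 23 lower. Of the 157 members lower than sham at 6 h, 63 were higher at 12 h than at 6 h and 4 were lower. Of those higher than sham at 6 h, 20 were lower at 12 h than at 6 h. The comparisons share the 6 h libraries, which by itself leans such counts toward a return. The same counts over all genes tested were not made, so these are a description and no trait of the members. Gm31728, at 0 in all 6 h libraries, was 9.24-fold higher at 12 h by the floor of 3 counts (interval from 7.12). Gm30692 fell 22.7-fold (7.38 to 113.7). The call of Gm30692 (edgeR adjusted p = 0.0138) was lost without 6 h replicate 3 or 12 h replicate 1 or 3 (up to 0.0538).

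For the 4 members of large change with the highest mean, the genes of nearest course over the 12 libraries were found by Pearson's r of log2(FPKM + 1), as a description. Gm43305 was followed most closely by Map3k6 (0.956), Shb (0.955) and Sat1 (0.954), the last an enzyme gene of polyamine breakdown. Gm48199 was followed by Ttpal (0.979), Lbp (0.978), which encodes the acute phase protein that binds lipopolysaccharide, and Col4a1 (0.977). Gm31583 was followed by Lrit1 (0.975), Gbp10 (0.968) and Syne1 (0.965), and Gm34654 by Btg1 (0.958), Stat5b (0.954) and Rnf125 (0.953). These 12 libraries fall in 4 groups, so the values cover differences between groups as well as within them.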

How the data were processed

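Poly(A) RNA of 12 whole-liver libraries was counted per gene. The deposited table holds a count and an FPKM value per gene and library, named in its header. Per the submitters' processing notes, CASAVA 1.8, fastp, HISAT2 2.0.5, featureCounts 1.5.0-p3, DESeq2 1.20.0 and GRCm38 (mm10) were used, with no roles stated. The deposited counts were whole numbers without normalization. Judged from the values, each deposited FPKM is its count over gene length and a library size set by median ratios. Strand use and replicate origin are not given in the sources used here. Samples were grouped by title.

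Members and lists were chosen with earlier results of these data known. Genes with 1 FPKM or more in 3 libraries (11451) were tested with edgeR 4.0.16 (quasi-likelihood, TMM scaling, 4 groups, Benjamini-Hochberg adjustment) in R 4.3.3, with SE as the difference over the root of F. The biological coefficient of variation was 20.6%. Where a group had at most 10 counts, differences of genes named by the rule below are given as ratios of scaled counts with 95% Clopper-Pearson intervals. Groups at 0 take a floor of 3 counts over the group. The edgeR script was tested on simulated data. Overlap came from table spans and GENCODE M21 exons, and sequences from RefSeq within 1000 bases of the table's start.

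Genes are named by rule: the 6 largest rises and falls among called members per comparison with sham (3 and 3 between times), the 10 highest means, members on the lists with up to 4 called genes of each, 3 members on each side of the threshold, their coding neighbours, and the 3 genes nearest in course to 4 of them. Head-to-head members, Egfros, Gm28857, Gm12718, 1110038B12Rik, AI506816, 4732465J04Rik, Gm42604, Gm45792 and Gm2061 were added after their values were seen. Alternatives were median-ratio sizes, library totals, DESeq2 1.42.0, limma 3.58.1 on log2(FPKM + 1) and log2(FPKM + 0.1), no filter, 2 FPKM, a replicate block, fits on the 6 libraries of a comparison alone, members without coding overlap and each library left out. After seeing the data, a fit without both sham replicate 1 and 6 h replicate 3 and a mean of 1 FPKM were added.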

Additional observations from a re-analysis of the deposited data

Results flagged for a closer look

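For 5 members the difference from sham was called in one direction at 6 h and in the other at 12 h, with the change from 6 h to 12 h itself called by the edgeR quasi-likelihood test. All but Gm16559 were chosen after their values were seen. 4732465J04Rik (chromosome 10, 95746077 to 95797236, plus strand, no coding gene within 5 kb) measured 8.0, 7.46 and 8.31 FPKM in sham, 15.8, 20.2 and 19.1 at 3 h, 11.3, 9.51 and 12.7 at 6 h and 3.08, 3.00 and 2.19 at 12 h. No group overlapped another. It was 0.47 above sham at 6 h and -1.53 at 12 h, a change of -2.00 (adjusted p = 0.0374, 3.88e-05 and 7.45e-06), and the call at 6 h was lost without any 1 of 4 libraries, up to 0.147 without 6 h replicate 3.

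Gm2061 (chromosome 1, 185447116 to 185455568, minus strand) overlaps the start of Slc30a10, the manganese exporter gene. It measured 0.575, 0.740 and 0.584 FPKM in sham, 2.66, 2.29 and 1.89 at 3 h, 1.32, 2.37 and 1.79 at 6 h and 0.176, 0.357 and 0.122 at 12 h, so the 12 h libraries were below all others. It differed from sham by 1.5 at 6 h and -1.53 at 12 h, a change of -3.03 (adjusted p = 0.00363, 0.0104 and 0.000118). Slc30a10 turned as well, from 1.25 at 6 h to -1.30 at 12 h (8.45e-05 and 0.000142), and without strand the reads of the pair cannot be told apart.

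Gm16559, antisense to Adh1, went from -3.62 at 6 h to 1.21 at 12 h, a change of 4.83 (adjusted p = 0.000102, 0.024 and 2.6e-05). Gm42604, antisense to Fras1, measured 6.39, 5.44 and 4.48 FPKM in sham, 3.77, 2.84 and 3.22 at 6 h and 9.73, 10.2 and 9.58 at 12 h, with no overlap between these groups. It went from -0.76 to 0.85, a change of 1.60 (adjusted p = 0.0184, 0.00983 and 0.000245), and the call at 6 h was lost without 6 h replicate 2 or 3 (up to 0.0752). Gm45792, inside Acsm1, which encodes a medium-chain acyl-CoA synthetase, went from -1.61 to 1.39, a change of 3.00 (adjusted p = 0.0258, 0.0373 and 0.00105). Its 12 h libraries were at 1.37, 5.85 and 4.85 FPKM, and the calls against sham were lost without 6 h replicate 1 or 2 and without any 1 of 5 libraries at 12 h (up to 0.0964 and 0.159). Acsm1 fell at both times, by 0.44 and 0.65 (0.0175 and 0.00248).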

How the results depend on the processing

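Of 184 calls of named genes, 127 were kept in every alternative run, 57 were lost in 1 or more and 0 changed sign, and 132 were kept without each library. A minimum of 2 FPKM, which tests fewer members, left 96 calls at 3 h, 133 at 6 h, 92 at 12 h, 72 from 6 h to 12 h and 154 across the 4 groups, and members without coding overlap had 89, 116, 81, 16 (6 h against 3 h) and 58 (12 h against 6 h). For 6 h against 3 h, no filter gave 48 calls and DESeq2's Wald test 45 against 26, and the cause was not tested. Leaving out each library gave 105 to 148 calls at 3 h, 178 to 218 at 6 h, 94 to 171 at 12 h (94 without 12 h replicate 3), 85 to 147 from 6 h to 12 h and 225 to 276 across the groups. For 6 h against 3 h it gave 9 to 50, with 9 without 6 h replicate 2, 14 without 6 h replicate 3, 11, 15 and 16 without 3 h replicates 1, 2 and 3, and 50 without sham replicate 1. Without both sham replicate 1 and 6 h replicate 3 the calls were 148, 186, 178, 28 and 119. The summed share of members changed by -0.0651, -0.176 and -0.0550 percentage points at 3, 6 and 12 h, by -0.138, -0.217 and -0.114 as a share of summed FPKM, and by -0.154 at 6 h without Malat1 and Neat1. Library totals moved the median of all genes by -0.12 for 6 h against 3 h.

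With the replicate number as a block the calls were 140, 209, 140, 22, 115 and 245 across the groups. Same-numbered libraries did not deviate together (r from -0.255 to 0.173 over 18 pairs, 4 of them over 0.1), and 1 of 12 libraries correlated best with its own number, so the numbers were not taken to pair the samples. The median SE of members was 0.43, 0.44 and 0.42 at 3, 6 and 12 h, against 0.21 for all genes tested at each time, and 87 members had 10 or fewer counts in a group. The part of depth in this was not tested.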

Other observations

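Beside the changes above, Ctcflos, antisense to the testis gene Ctcfl and named after its values were seen, measured 0.854, 1.99 and 2.28 FPKM in sham, 4.10, 6.42 and 3.62 at 3 h, 7.55, 6.84 and 5.16 at 6 h and 5.19, 3.45 and 3.98 at 12 h. Every resected library lay above sham, and it rose by 1.42 ± 0.32, 1.89 ± 0.32 and 1.28 ± 0.32 by the edgeR quasi-likelihood test (adjusted p = 0.00688, 0.000555 and 0.00973). Egfros, inside the gene of the epidermal growth factor receptor that drives hepatocyte division, measured 0.0579, 0.397 and 0.307 FPKM in sham, 1.05, 1.93 and 0.514 at 3 h, 1.23, 1.69 and 0.816 at 6 h and 0.679, 0.903 and 1.54 at 12 h. It rose by 2.14 ± 0.59, 2.24 ± 0.59 and 2.0 ± 0.59 (adjusted p = 0.0197, 0.00933 and 0.0216), with the calls at 3 h and 12 h lost without replicate 3 h 2 (0.103) and 12 h 3 (0.0969). Egfr rose by 0.87 ± 0.22 at 6 h (0.00671) and differed by 0.49 and 0.28 at the other times (0.127 and 0.365).

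Gm13775 and Gm12909 adjoin major urinary protein genes, a cluster of near-identical copies where reads may be split, and were named after their values were seen. They fell by 1.43 ± 0.32 and 1.07 ± 0.23 at 6 h (adjusted p = 0.00375 and 0.00279), while Mup3 beside Gm12909 differed by 0.05 ± 0.19 (0.878). The call of Gm13775 at 3 h (0.026) was lost without any 1 of 3 libraries and that of Gm12909 at 12 h (0.0141) without 12 h replicate 2 or 3 (up to 0.103 and 0.0605). Gm49431, beside Cyp2d34, a cytochrome P450 gene, fell by 1.66 ± 0.29 at 6 h and rose by 1.49 ± 0.29 to 12 h (0.000663 and 0.00265).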
